A study of Arabidopsis thaliana with 9 samples.

Results

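Seedlings of the Arabidopsis thaliana mutant gun4-1 were set directly against wild-type Col-0 seedlings grown with gabaculine (GAB), with 3 Affymetrix ATH1 arrays in each group, to describe what separates a mutant from a chemical block of 5-aminolevulinic acid (ALA) formation. All probe sets other than the AFFX controls were members, 22746 of the 22810 measured, so none was chosen by its values. The gun4-1 seedlings carried the gun4-1 mutation in the Col-0 background and received no agent. The GAB seedlings were Col-0 wild type with 10 µM gabaculin in the medium, and a further 3 arrays came from untreated Col-0 wild type. All were whole seedlings grown on solid MS medium for 3 days in the dark and then exposed to light for 6 h. gun4-1 is a single allele and GAB a single dose, so the loss of GUN4 function and any other difference of this line from Col-0 cannot be told apart. The untreated Col-0 arrays did not enter the main test and are given to show on which side of the comparison a gene departed from them, and 1 alternative fit of all 9 arrays used them for the estimate of spread.

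ALA is the precursor of all tetrapyrroles, among them chlorophyll and heme, and is formed in plastids from glutamate through glutamyl-tRNA and glutamate-1-semialdehyde. Gabaculine inhibits the aminotransferase of the last of these steps and can inactivate other aminotransferases that use pyridoxal phosphate. GUN4 is a porphyrin-binding plastid protein that stimulates Mg chelatase, the entry into the chlorophyll branch, and mutants of this class were found because nuclear photosynthesis genes stay active when plastids are damaged. Both interventions thus act in the same pathway, at different steps. The paper also found reduced ALA synthesis in older seedlings of the mutant, and chose the mutant for its arrays because of this trait. It further reports genes that changed in common in the mutant and with the inhibitor, each against untreated seedlings. Reduced ALA formation is therefore not a feature of the GAB side alone, and the comparison below describes only where the groups differed.

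Array medians lay between 6.41 and 6.48 in gun4-1, between 6.49 and 6.52 in GAB and between 6.50 and 6.57 in Col-0 on the log2 scale. Pairs of 1 gun4-1 and 1 GAB array correlated with r of 0.987 to 0.991 across probe sets, against 0.9955 to 0.9964 within gun4-1 and 0.9967 to 0.9971 within GAB. The median SD between arrays was 0.113 in gun4-1 and 0.0950 in GAB. The log2 differences between 3′ and 5′ control probe sets, a sign of RNA integrity, lay for actin between 1.44 and 1.57 in gun4-1 and between 1.39 and 1.47 in GAB, where the groups overlapped. For GAPDH they were -0.03, 0.20 and -0.05 in gun4-1, against -0.15, -0.23 and -0.09 in GAB, without overlap. The 25S rRNA control probe set read 11.92, 11.71 and 11.79 in gun4-1, against 11.00, 10.83 and 10.60 in GAB, so the groups did not overlap here either, and the part of these 2 controls in the results below was not tested. The platform annotation gives exactly 1 gene for 13513 probe sets, several for 503 and none for 8730, and measured genes below are those with a named probe set. Families were found through symbols and synonyms or through listed loci, so members known only by a locus number can be missing, and each family is covered only in part. The lists were chosen with earlier results of these data known, so their counts and medians are descriptions and not tests. GUN4 itself and GSA2, which encodes one of the aminotransferases that gabaculine inhibits, are not named there and are not analysed here. The level of the GUN4 transcript in the mutant is therefore not known here. The other aminotransferase gene, GSA1, had 10.23, 10.19 and 10.42 in gun4-1 and 10.27, 10.36 and 10.13 in GAB, with overlapping arrays.

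Of all probe sets, 684 (3.01%) passed the test, 251 (1.1%) higher and 433 (1.9%) lower in gun4-1 than in GAB. A probe set was called when its Benjamini-Yekutieli adjusted p from limma was at most 0.05 and its fold change, gun4-1 over GAB, was above 1.5 or below 0.667. The lower group made up 63.3% of the calls and held the larger differences, with 209 probe sets beyond 2-fold and 32 beyond 4-fold, against 93 and 16 in the higher group. The median fold change was 1.83 in the higher and 0.506 in the lower group. The 3 arrays of gun4-1 did not overlap with those of GAB in any of the 684, and the same held for 29.8% of all probe sets. Each single array that was left out cut the counts by more than 1.5 times. Without gun4-1 replicates 1, 2 and 3 in turn, 97, 126 and 103 probe sets were called higher and 199, 258 and 185 lower. Without GAB replicates 1, 2 and 3 they were 137, 117 and 108 higher and 249, 224 and 210 lower. The probe sets called here and also without each of the 6 arrays numbered 71 higher and 145 lower.

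**Figure D1:**
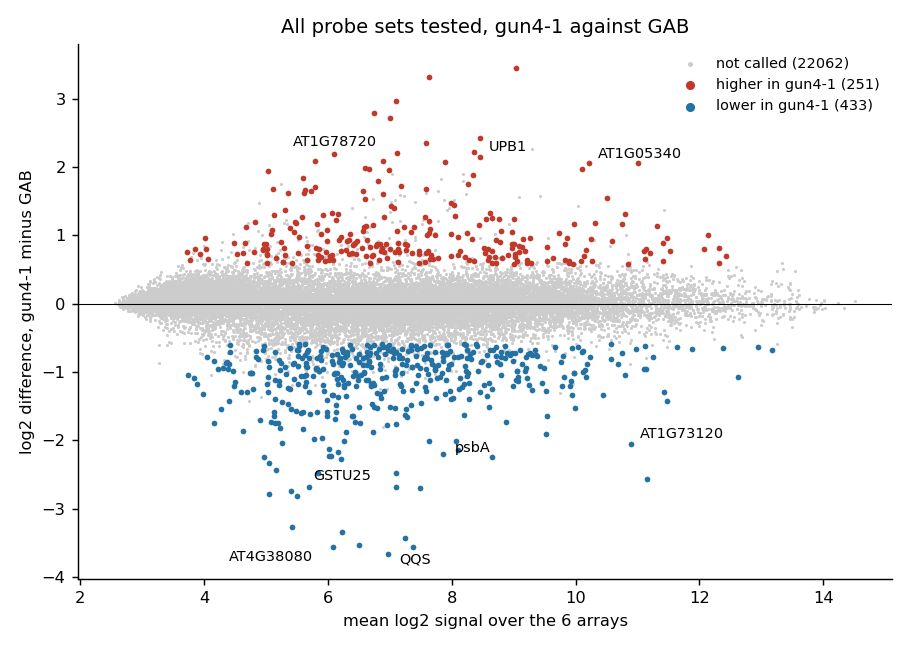
Log2 difference, gun4-1 minus GAB, of the 22746 probe sets against their mean log2 signal over the 6 arrays, with the 251 called higher in red, the 433 called lower in blue and the others in grey. Calls were sparser at low signal, since 4.0% of the higher and 19.6% of the lower calls had a gun4-1 mean under 5, against 34.8% of all probe sets. The largest differences of named genes lay on the lower side, at -3.67 for QQS.

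For most called probe sets the untreated Col-0 seedlings resembled GAB and not gun4-1. The Col-0 mean was placed on a scale on which 0 is the GAB mean and 1 the gun4-1 mean, and this position had a median of 0.0094 over the 684. It was nearer to GAB for 597 of them (87.3%), which were 228 of the 251 higher and 369 of the 433 lower. Nearer to gun4-1 it was for 23 of the higher and 64 of the lower probe sets. In 104 of the 684, all 3 Col-0 arrays lay between all gun4-1 and all GAB arrays. The mutant and the inhibitor there stood on opposite sides of the untreated seedlings. In 174, a larger number, all Col-0 arrays lay beyond all GAB arrays. Both groups there departed from untreated seedlings in the same direction, and gun4-1 farther. These 2 counts were made among the 684 only. Whether they are larger than over all probe sets is therefore not known. Without GAB replicate 1 or GAB replicate 3 the share nearer to GAB was 83.7% and 83.0%. These shares carry no test, since they follow probe sets that were chosen for a difference between the other 2 groups.

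**Figure D2:**
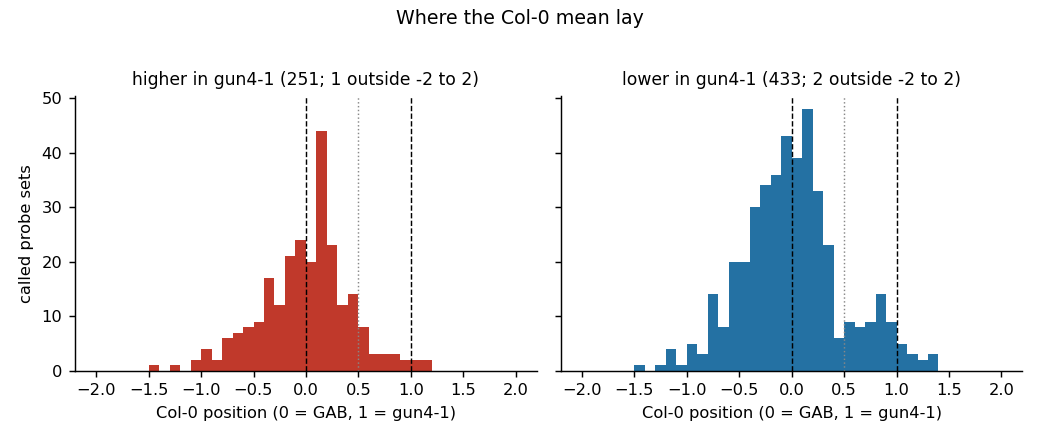
Number of called probe sets by the position of the Col-0 mean, with 0 at the GAB mean and 1 at the gun4-1 mean (dashed lines) and the midpoint dotted, for those higher (left) and lower (right) in gun4-1. Both panels peak around 0, and the lower group has a further small rise near 1; 1 and 2 probe sets fall outside the plotted range of -2 to 2.

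The largest decrease of a named gene was that of QQS, an orphan gene known to influence starch content. It read 5.08, 5.06 and 5.27 in gun4-1, against 8.78, 8.84 and 8.80 in GAB, a log2 difference of -3.67 (SE 0.08, adjusted p = 1.96e-06 in limma) and a fold change of 0.0785. Untreated Col-0 had 8.36, 8.29 and 8.45, close to GAB and more than 3 log2 units above every mutant array. AT2G16005, AT5G38020, AT4G29200 and AT1G21520 had log2 differences of -3.57, -3.53, -3.35 and -3.27, with Col-0 positions between -0.11 and 0.10. AT5G38020 had 4.53, 4.69 and 5.02 in gun4-1, against 7.84, 8.40 and 8.59 in GAB, and its neighbour on chromosome 5, AT5G38030, had 3.90, 4.19 and 4.18 in gun4-1, against 6.79, 6.79 and 7.12 in GAB. These were 2 of the 8 lower loci, of 226, with an adjacent measured locus called the same way (3.54%), while lower loci were 1.71% of all 13217 measured. A neighbour on either side counted, so the first share would exceed the second without any clustering, and clustering was not tested. The log2 differences of AT5G38030, AT3G47320, AT2G12050, AT4G17470, AT1G43910 and AT3G28320 were -2.81, -2.78, -2.74, -2.70, -2.48 and -2.28, with Col-0 positions between -0.20 and 0.08. The probe set of AT2G12050 may share sequence with other genes by its suffix. The calls named here held without each single array. That of AT1G66800, which fell by 2.25, was lost without any array of gun4-1 and without GAB replicate 2 (highest adjusted p 0.0918).

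Genes of the cell wall changed in both directions. These enzymes loosen, cut and rejoin the polymers around a growing cell. GH9B8, an endoglucanase of glycosyl hydrolase family 9, read 4.71, 5.09 and 4.90 in gun4-1, against 7.46, 6.97 and 6.97 in GAB (log2 difference -2.23, SE 0.15, adjusted p = 0.000505 in limma). GH9C2 of the same family read 7.54, 7.65 and 7.49 in gun4-1, against 8.93, 8.70 and 8.71 in GAB, and the other 13 of 15 measured members were not called. The beta expansins EXPB1 and EXPB3, which loosen walls without cutting them, had log2 differences of -1.19 and -1.16. Col-0 lay above GAB for both, at positions -1.08 and -1.17, so gun4-1 was the farther of the 2 groups from untreated seedlings. The expansin-like EXLA1 was 0.83 higher, and 16 of the 19 expansins measured were not called. Among 10 xyloglucan endotransglucosylase/hydrolases, which cut and rejoin xyloglucan chains, XTH18 read 9.37, 9.34 and 9.16 in gun4-1, against 7.09, 7.38 and 7.74 in GAB, a fold change of 3.70. XTH16 was 0.70 higher and XTH32 fell by 1.2. EXO, which promotes cell expansion in response to brassinosteroids, read 11.77, 11.97 and 11.83 in gun4-1, against 10.83, 11.08 and 10.98 in GAB. Further calls were the subtilisin-like protease SBT4.12 and the pectin methylesterase PMEPCRF, with log2 differences of -1.16 and -0.62. The median log2 difference was -0.05 over the GH9 list, 0.09 over the expansins and 0.25 over the xyloglucan enzymes, beside 0.02 over all probe sets. Of all probe sets 1.1% were called higher and 1.9% lower. The calls of GH9B8, GH9C2, EXPB1, XTH18, XTH32 and SBT4.12 held without each single array. EXPB3 was called only without GAB replicate 1, EXLA1 only without GAB replicate 3, and XTH16 only without gun4-1 replicate 2 or GAB replicate 3 (highest adjusted p 0.188, 0.281 and 0.0662), EXO was lost without gun4-1 replicate 3 (0.0519) and PMEPCRF without each of the 6 (0.262) and with median centring.

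**Figure D3:**
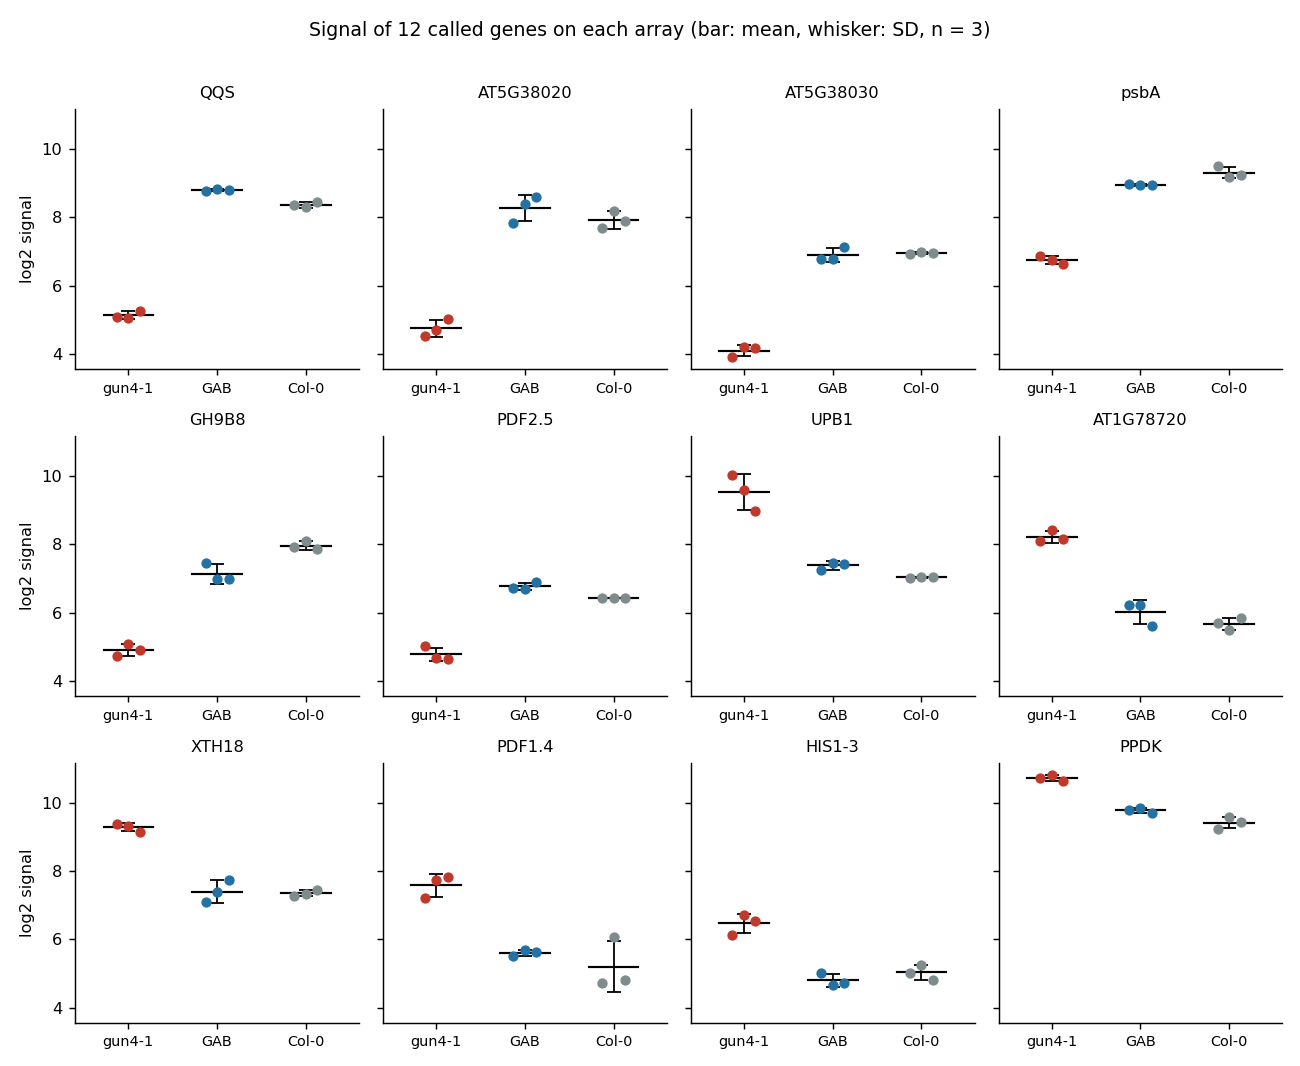
Log2 signal of 12 called genes on each array of gun4-1 (red), GAB (blue) and Col-0 (grey), as points with the mean as a bar and the SD as whiskers (n = 3 arrays). The first 6 genes are lower and the last 6 higher in gun4-1 than in GAB, and in each the Col-0 mean is nearer to GAB.

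Few transcripts of the photosynthetic apparatus were called, and none of tetrapyrrole synthesis, over lists of which only a part was measured, 11 of 59 loci for nuclear photosynthesis and 12 of 41 for tetrapyrrole synthesis. The largest of these differences was that of psbA, the plastid gene of the D1 protein of photosystem II, with 6.87, 6.76 and 6.63 in gun4-1, against 8.98, 8.94 and 8.94 in GAB (log2 difference -2.2, SE 0.09, adjusted p = 3.18e-05 in limma, fold change 0.217). Col-0 read 9.51, 9.19 and 9.25, above every GAB array. Of 69 plastid-encoded genes measured 1 more was called, rps4 of the small ribosomal subunit, which fell by 0.65, and the median of all 69 was 0.03, beside 0.02 over all probe sets. These 2 calls of 69, and the 1 of 11 and 0 of 12 below, stand beside 3.01% called over all probe sets. Plastid transcripts mostly lack poly(A) tails, and the array protocol primes from the 3′ end, so these signals are less direct measures than those of nuclear genes. In 11 nuclear photosynthesis genes with a median of -0.02, LHCB4.3, a minor antenna protein of photosystem II, read 9.43, 9.25 and 9.36 in gun4-1, against 10.19, 10.26 and 10.15 in GAB (adjusted p = 0.00344 in limma), and the other 10 lay between -0.16 and 0.12. None of 12 measured genes of tetrapyrrole synthesis was called, with a range from -0.34 for NOL to 0.51 for PORB. PORB, a light-dependent protochlorophyllide oxidoreductase, had 11.14, 10.89 and 11.23 in gun4-1 and 10.82, 10.35 and 10.56 in GAB (adjusted p = 0.411 in limma), and Col-0 with 11.56, 11.45 and 11.42 was above both. Of 23 mitochondrial probe sets, 1 of the 2 of nad5, a subunit of respiratory complex I, was 0.66 higher, on a probe set whose suffix marks possible cross-hybridization. ccb382, of cytochrome c biogenesis, fell by 1.17. The nuclear gene PPR596, of the pentatricopeptide repeat proteins that bind organellar RNA, fell by 1.04. The calls of psbA, LHCB4.3 and PPR596 held without each single array. Those of rps4 and ccb382 were lost without each of the 6 (highest adjusted p 0.201 and 0.143), and that of nad5 without each except GAB replicate 3 (0.117). The rps4 call was also lost when each array was centred on its median.

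The genes for which GAB and not gun4-1 departed from untreated seedlings included several of chemical detoxification. These enzymes attach glutathione or sugars to foreign compounds, or export them. GSTU25, a tau-class glutathione transferase, read 5.77, 5.98 and 5.84 in gun4-1, against 8.41, 8.53 and 8.09 in GAB, and 6.35, 6.68 and 5.74 in Col-0. Its log2 difference was -2.48 (SE 0.12, adjusted p = 7.71e-05 in limma). UGT73C1, a glucosyltransferase that accepts foreign compounds and hormones, read 4.2, 4.74 and 4.42 in gun4-1, against 5.84, 5.97 and 5.74 in GAB, and 4.32, 4.03 and 4.17 in Col-0. AT2G04050 fell by 1.6, with a Col-0 position of 1.02. These were the 3 calls among 8 measured genes of the detoxification list, whose median was -0.63, beside 0.02 and 3.01% called over all probe sets. The list was chosen with earlier results of these data known, so its median and count are no separate evidence. AER, an alkenal reductase, had 8.57, 8.57 and 8.49 in gun4-1, against 9.13, 9.20 and 8.89 in GAB. It was not called, with an adjusted p of 0.0844 in limma and a difference that also fell short of the fold limit. It differed from the called genes in that untreated Col-0, with 7.73, 7.67 and 7.73, lay below every array of both groups. The same order held for AT5G16980 of this list, with 6.54, 6.62 and 6.56 in gun4-1, against 7.30, 7.61 and 6.98 in GAB, and 6.04, 5.95 and 5.78 in Col-0 (adjusted p = 0.117 in limma). The other families of this kind did not move as wholes. Of 14 glutathione transferases 2 were called, and of these GSTU23 fell by 1.2, with all Col-0 arrays above all GAB arrays. Of 52 glycosyltransferases 4 were lower and none higher, with a median of 0.02. They were UGT73C1, UGT71C1 (-1.01), UGT78D1 (-0.91), which forms flavonol rhamnosides, and UGT72B3 (-0.60). None of 24 cytochromes P450 was called, and their values lay between -0.44 and 0.22. Over all probe sets 1.1% were called higher and 1.9% lower, so the absence of calls in lists of this size says little about a family. The GSTU25, UGT73C1 and UGT78D1 calls held without each single array. AT2G04050 was lost without gun4-1 replicate 1 or 3 (highest adjusted p 0.0746), GSTU23 and UGT71C1 without each except GAB replicate 1 (0.178 and 0.140), and UGT72B3 without each of the 6 (0.190) as well as with quantile normalization, median centring, the trend and robust variance or the replicate block.

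Other genes with Col-0 next to gun4-1 had no shared list. AT1G73120 read 9.89, 9.77 and 9.95 in gun4-1, against 11.83, 11.99 and 11.94 in GAB, and 9.60, 9.74 and 9.96 in Col-0 (log2 difference -2.05, SE 0.09, adjusted p = 3.81e-05 in limma). AT2G41380 and AT4G01870 had log2 differences of -1.65 and -1.27, at Col-0 positions of 1.04 and 0.99. AAH, the allantoate amidohydrolase of purine breakdown, read 7.72, 7.85 and 7.54 in gun4-1, against 8.87, 9.01 and 8.72 in GAB, and 7.85, 8.05 and 7.79 in Col-0. Prx37, a class III peroxidase, read 5.92, 6.08 and 6.05 in gun4-1, against 6.97, 6.95 and 7.27 in GAB, and 6.28, 6.31 and 6.24 in Col-0. PRXR1, another of the 3 peroxidases found by symbol, fell by 0.66, but with Col-0 beyond GAB at -0.70. Peroxidases known only by a locus number can be missing from these 3, so they give no direction for the family. In the opposite direction, AT2G16660 read 8.26, 7.91 and 7.95 in gun4-1, against 6.37, 6.34 and 6.24 in GAB, and 8.07, 8.48 and 7.87 in Col-0, a fold change of 3.30. AT2G39920 and AT3G48020 were 0.73 and 0.67 higher in gun4-1, at positions of 1.03 and 0.93. In Prx37, and also in AT4G38080 and AT2G25150, every Col-0 array lay between the groups. AT4G38080 read 4.62, 4.21 and 4.09 in gun4-1, against 8.11, 7.37 and 8.13 in GAB, and 5.08, 5.69 and 5.45 in Col-0, so it stood below untreated seedlings in the mutant and above them with the inhibitor. AT2G25150 read 4.08, 4.03 and 4.05 in gun4-1, against 5.46, 5.94 and 5.88 in GAB, and 4.63, 4.79 and 4.73 in Col-0. AT2G23540 fell by 2.44 at a position of 0.93, and its call was lost without any array of gun4-1 (highest adjusted p 0.0882). PRXR1 was lost without each of the 6 (0.189), AT2G39920 was called only without GAB replicate 1 (0.120) and AT3G48020 only without gun4-1 replicate 3 (0.216), while the other calls in this paragraph held.

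**Figure D4:**
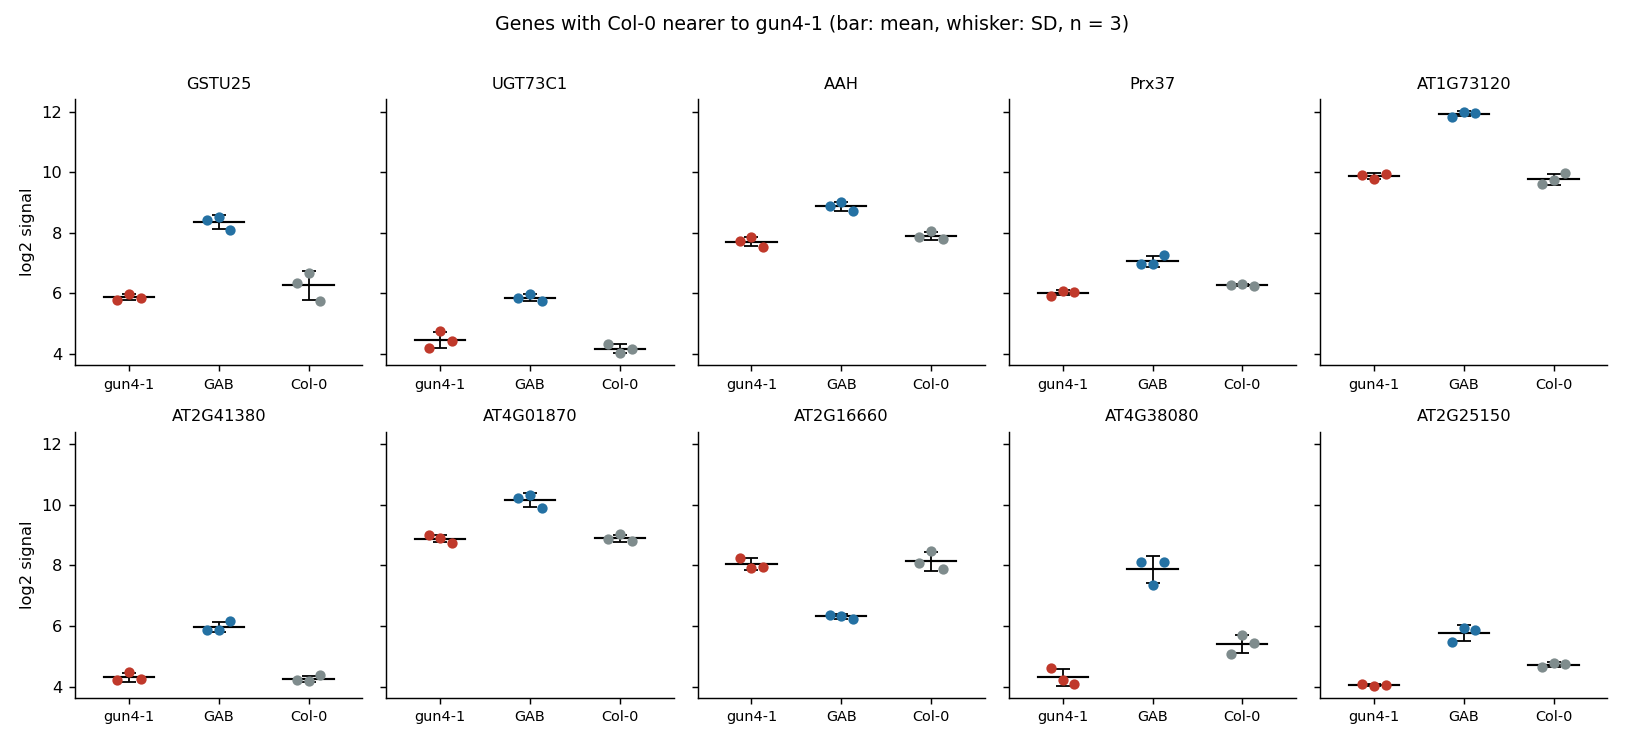
Log2 signal on each array of gun4-1 (red), GAB (blue) and Col-0 (grey) for 10 called genes whose Col-0 mean was nearer to gun4-1, with the mean as a bar and the SD as whiskers (n = 3 arrays). In Prx37, AT4G38080 and AT2G25150 every Col-0 array lies between the other groups, and AT2G16660 is the gene of the 10 that is higher in gun4-1.

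Among probe sets named for 1 gene and higher in gun4-1, the largest log2 differences were those of AT1G78720 (2.2), AT1G15010 (2.19) and UPB1 (2.15). Probe sets without a gene in the annotation reached 3.45 and 3.32, so genes outside it can have larger increases. UPB1 is a bHLH transcription factor that represses peroxidase genes and limits root growth. It read 10.02, 9.60 and 8.98 in gun4-1, against 7.24, 7.46 and 7.44 in GAB, a fold change of 4.45 (SE 0.22 on the log2 scale, adjusted p = 0.00478 in limma), and 7.01, 7.05 and 7.04 in Col-0. AT1G05340 had a high signal in both groups, with 11.40, 11.35 and 10.99 in gun4-1, against 9.32, 9.23 and 9.01 in GAB. AT3G05950 and AT1G34510 were 2.08 and 1.95 higher, AT4G22470 1.63 and AT1G65510 1.44 higher. HIS1-3, a linker histone variant induced by drought and abscisic acid, read 6.14, 6.71 and 6.55 in gun4-1, against 5.03, 4.65 and 4.73 in GAB, whereas none of 6 core histone genes was called (median -0.19, all 6 below 0). Over all probe sets 3.01% were called. AGL87, a MADS-box factor, and MGL, the methionine gamma-lyase that breaks down methionine, were 1.24 and 0.96 higher. These calls held without each single array. AT1G47540 (2.1 higher) was called only without GAB replicate 1, AT1G49570 (1.96) only without gun4-1 replicate 1 and AT2G23110 (1.61) only without GAB replicate 3, with highest adjusted p values of 0.288, 0.242 and 0.0675. AT1G47540 and AT1G49570 were also lost with the trend and robust variance, and AT1G47540 in the fit of all 9 arrays.

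Defensins, small cysteine-rich antimicrobial peptides, moved both ways. Of 7 measured, PDF1.4 read 7.20, 7.74 and 7.83 in gun4-1, against 5.52, 5.69 and 5.62 in GAB, and PDF1.2b was 1.02 higher. PDF2.5 read 5.01, 4.68 and 4.65 in gun4-1, against 6.72, 6.68 and 6.89 in GAB, a log2 difference of -1.99. LCR67 had a difference of 1.58 without a call (adjusted p = 0.279 in limma). The calls among these 7 stand beside 3.01% called over all probe sets. The calls of PDF1.4 and PDF2.5 held without each single array, and that of PDF1.2b, on a probe set whose suffix marks possible cross-hybridization, was lost without gun4-1 replicate 1 or 3 (highest adjusted p 0.0620).

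Among carbon reserve and sugar genes, taken from 1 list of dark and low sugar responses and 2 lists added after values were seen, 4 were called higher and 1 lower in gun4-1. Of all probe sets 1.1% were called higher and 1.9% lower. PPDK, the pyruvate orthophosphate dikinase that feeds gluconeogenesis in seedlings, read 10.74, 10.82 and 10.63 in gun4-1, against 9.79, 9.85 and 9.70 in GAB, and 9.24, 9.58 and 9.46 in Col-0 (log2 difference 0.95, SE 0.08, adjusted p = 0.00239 in limma). ICL, the isocitrate lyase of the glyoxylate cycle, was 0.82 higher, and AIM1 and SDP1, the other 2 measured genes of seed lipid mobilisation, had 0.02 and 0.31 without a call. ATL8, a RING-type ubiquitin ligase, was the 1 call among 8 genes that respond to darkness and low sugar, with 9.39, 9.33 and 8.98 in gun4-1, against 8.33, 8.46 and 8.17 in GAB. All 8 had positive differences with a median of 0.34, beside 0.02 over all probe sets. AKINBETA1, the beta subunit of a SnRK1 kinase complex, had 0.49 and missed both limits (fold change 1.41, adjusted p = 0.0632 in limma). Of 17 sugar transporters, SWEET2 of the vacuole was 0.79 higher and TMT1, which loads sugars into the vacuole, was 0.78 lower. Only the PPDK call of this group held without each single array. ICL and SWEET2 were lost without each of the 6 (highest adjusted p 0.233 and 0.182), ATL8 without each except gun4-1 replicate 3 (0.139) and TMT1 without each except gun4-1 replicate 1 (0.101).

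The late embryogenesis abundant (LEA) proteins, which protect cells during seed drying, had the highest median of the lists with at least 6 probe sets, 1.3 over 6, but no call. It came from 4 members between 1.23 and 1.51, while AT2G46140 and AT2G44060 had -0.04 and -0.12. The gene named LEA had 7.90, 7.48 and 8.16 in gun4-1, against 6.62, 5.54 and 6.83 in GAB (log2 difference 1.51, SE 0.30, adjusted p = 0.136 in limma). In LEA4-5, LEA18 and AtLEA4-1 as well, the arrays of gun4-1 and GAB did not overlap, which also held for 29.8% of all probe sets. GAB replicate 2 was the lowest of the 9 arrays in each of these 4 genes. The oleosin OLEO3, the 1 measured gene of the seed storage list, had 7.29, 7.22 and 7.46 in gun4-1 and 7.05, 6.87 and 7.05 in GAB (adjusted p = 0.544 in limma). The root hair expansins EXPA7 and EXPA18 had differences of 0.85 and 0.69 and the root glucosidase PYK10 one of -0.22, and none of these 3 root genes was called. Over all probe sets 3.01% were called, so the absence of calls in lists this small says little. In whole seedlings, a change in the share of an organ or cell type and a change in transcript level per cell cannot be told apart.

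**Figure D5:**
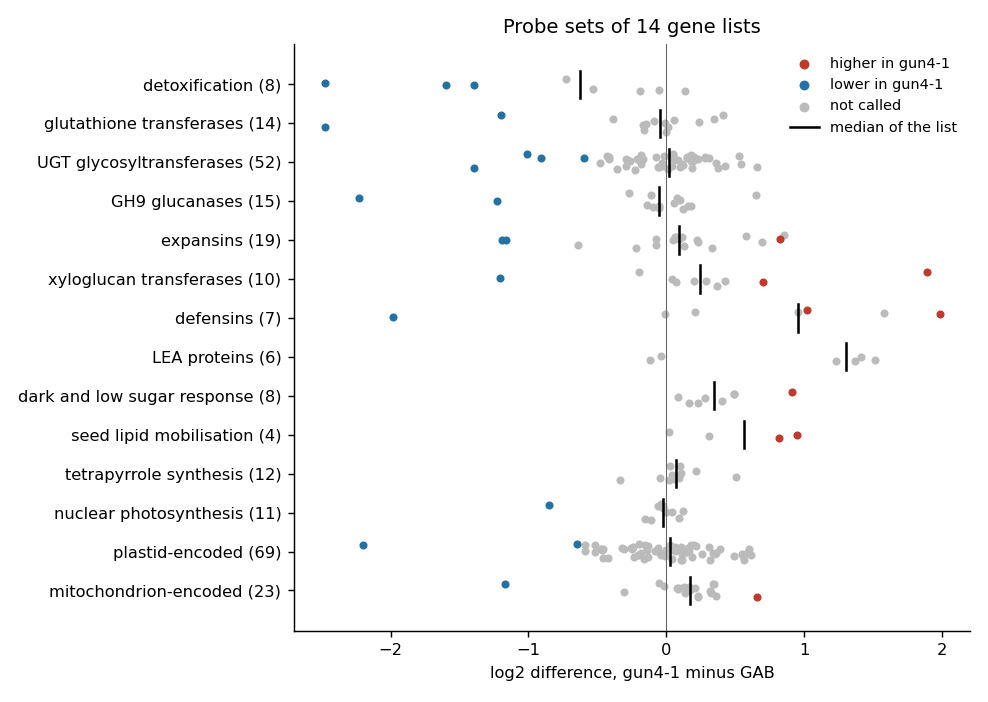
Log2 difference, gun4-1 minus GAB, of every measured probe set in 14 gene lists, with calls in red (higher) and blue (lower), other probe sets in grey and the list's median as a black line; numbers in brackets are probe sets. Most members of each list lie between -0.5 and 0.5 except in the detoxification, defensin, LEA and seed lipid mobilisation lists, where fewer than 4 do.

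Calls were also made among regulators and cytoskeleton genes. IAA29, a repressor of auxin responses, read 4.76, 4.80 and 5.15 in gun4-1, against 5.87, 5.79 and 6.34 in GAB, and was the 1 call among 7 Aux/IAA and SAUR genes. WAG2, a protein kinase of auxin transport, and TRY, a small MYB protein that patterns trichomes, had log2 differences of -1.65 and -0.87, and the jacalin-related lectin JAL22 one of -1.3. Of 9 tubulins and actins, TUA1 and ACT11 were 0.67 and 0.85 higher and TUB1 fell by 0.61. CCS, the copper chaperone of superoxide dismutase, was 0.63 higher. The JAL22 call held without each single array. IAA29, TUA1 and TUB1 were lost without each of the 6 (highest adjusted p 0.200, 0.0917 and 0.178), ACT11 and TRY without each except GAB replicate 1 (0.154 and 0.134), CCS without each except gun4-1 replicate 1 (0.196), and WAG2 without gun4-1 replicate 1 or any GAB replicate (0.130). TUB1 was also lost with median centring and the replicate block. No gene was called in the lists of autophagy (11 probe sets), aldehyde dehydrogenases (8), WRKY factors (7), flavonoid synthesis (4), aminotransferases and GABA metabolism (4), sulfate assimilation (3), glucosinolates (3), iron homeostasis (3) and the circadian clock (3). The counts in this paragraph stand beside 3.01% called over all probe sets. With that share, lists this small without a call do not show that a family was unchanged. In the aminotransferase list DELTA-OAT, ornithine aminotransferase, had 8.46, 8.61 and 8.69 in gun4-1, against 8.04, 8.08 and 8.08 in GAB. It missed both limits (fold change 1.43, adjusted p = 0.0501 in limma).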

How the data were processed

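Affymetrix ATH1 arrays were hybridised with labelled RNA of gun4-1, GAB and Col-0 seedlings, 3 arrays each. The deposited values are log2 signals per probe set, background-corrected, quantile-normalized and summarised by the authors with RMA (Affymetrix Expression Console, per the submitters' processing notes, version not given there). The 64 AFFX control probe sets were left out of tests and 0 columns were unused. gun4-1 and GAB were compared in a 2-group fit of their 6 arrays (limma 3.58.1, R 4.3.3; 4 residual and 5.06 prior degrees of freedom), with Benjamini-Yekutieli adjustment over the 22746 probe sets, an adjusted p of at most 0.05 and a fold limit of 1.5 or 0.667. All adjusted p values come from this limma fit or its alternatives. The number of arrays limits the precision. The methods describe experiments as independent repeats but do not say what was separate between these arrays, so the p values refer to array-to-array spread, part of which may be technical.

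Genes and list members were chosen with earlier results of these data known. Named genes were the 15 called single genes with the largest difference in each direction, up to 4 members of each list with called ones first, and those with Col-0 nearest to GAB, gun4-1 or midway. AT1G73120, AAH, MGL, AGL87, JAL22, WAG2, TRY, CCS and AER and the lists of seed lipid mobilisation, sugar transporters, and tubulins and actins were added after values were seen, and 5 mismatched members were removed from lists. Of 52 other lists, 42 had a named probe set. Symbols came from RefSeq, which matched 13436 of the 13513 single genes. Suffixed probe sets may cross-hybridise. Alternatives were other adjustments, fold limits, scalings, filters, variance models, a t-test with equal variances, a replicate block and leaving out each array. The planned motif search was not run.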

Additional observations from a re-analysis of the deposited data

Results flagged for a closer look

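Each of the following named genes was called between gun4-1 and GAB while every Col-0 array lay between all gun4-1 and all GAB arrays, so the mutant and the inhibitor stood on opposite sides of untreated seedlings. The difference between their departures from Col-0 is the tested difference between gun4-1 and GAB. Among genes lower in gun4-1 it was, on the log2 scale, -3.6719 for QQS, -3.5618 for AT4G38080, -2.4786 for AT1G43910, -1.9853 for PDF2.5, -1.7086 for AT2G25150, -1.1701 for ccb382, -1.0456 for Prx37 and -0.8532 for LHCB4.3. Among genes higher in gun4-1 it was 1.6263 for AT4G22470, 1.9507 for AT1G34510 and 2.0844 for AT3G05950. The Col-0 position ranged from 0.08 in AT1G43910 to 0.75 in Prx37, so in some of these genes GAB departed little from Col-0. The ccb382 call was lost without each of the 6 arrays (highest adjusted p 0.143 in limma).

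Outside the tested probe sets, the mean of the 25S rRNA control probe set was 0.9997 higher in gun4-1 than in GAB, at 11.81 ± 0.11 in gun4-1, 10.81 ± 0.20 in GAB and 10.83 ± 0.20 in Col-0 (SD, n = 3 arrays each). Its part in the other differences was not tested.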

How the results depend on the processing

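Against 251 probe sets higher and 433 lower in gun4-1, the Benjamini-Hochberg adjustment gave 406 and 696, and a fold limit of 2 gave 93 and 209. A t-test with equal variances, which was not the paper's test for its arrays, gave 393 and 689 unadjusted and 98 and 168 after Benjamini-Hochberg. Counted as loci named by 1 gene there were 121 and 234. Leaving out 1 array gave 97 to 137 higher and 185 to 258 lower. The share of calls with Col-0 nearer to GAB was 87.28%, against 84.11% with a fold limit of 2, 89.75% with a mean signal of at least 6, and 83.02 to 87.76% with 1 array left out. Centring each array on its median moved the median of all probe sets to 0.0825 and the lower share of calls to 54.9%, with 339 higher and 413 lower. A replicate block gave 298 higher, 493 lower and a share of 86.6%. The labels give no pairing beyond the number, and deviations of same-numbered samples correlated at 0.245, 0.155 and -0.0077, with not every sample closest to its own number. Of 78 named calls none reversed, 46 held without each single array, 22 were lost without 1 to 5 arrays and 10 without any of the 6. Probe sets equal on all arrays of gun4-1 or of GAB numbered 207, of which 6 were called, and without them 258 and 454 were called (chosen after seeing the data). The cause of these shifts was not tested. Of the lower calls, 19.6% had a gun4-1 mean under 5, where signal limits the size of a decrease, against 34.8% of all probe sets.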

Other observations

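Probe sets with no gene in the annotation held some of the largest differences. The probe sets with the largest increases in gun4-1 were 3.45 and 3.32 higher on the log2 scale, and the first of them had 7.32 on all 3 GAB arrays. In the other direction the log2 differences reached -3.43 and -2.69, and the second of these had a Col-0 position of 0.84, next to gun4-1. Higher calls were rarely neighbours, since 2 of 118 loci (1.69%) had an adjacent measured locus called the same way, beside 0.893% of all loci called higher. A neighbour on either side counted, so these shares are not on the same footing and show no clustering. The 2 were AT2G23110 and AT2G23120, with 1.61 and 0.63. The lower pairs were PPR596 and AT1G80280, AT3G28310 and AT3G28320, AT4G36610 and AT4G36640, and AT5G38020 and AT5G38030. Between 2.21% and 2.87% of measured loci were called on each of the 5 nuclear chromosomes.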
